A study of Mus musculus with 18 samples.

Results

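The 10 circadian clock genes *Clock*, *Npas2*, *Per1*, *Per2*, *Per3*, *Cry1*, *Cry2*, *Dbp*, *Tef* and *Bhlhe40* were followed in mouse hepatoma cells that carry either a working aryl hydrocarbon receptor (AHR) or one that cannot bind DNA. The genes were taken by symbol, with every probe set that names only that gene: 24 of the 45037 probe sets and 10 of the 18193 genes on the array. Wild-type Hepa-1c1c7 hepatoma cells were compared with *c*35 cells, a derivative of the same line in which AHR has lost DNA binding. Both lines were given DMSO vehicle (naive cells), TCDD (dioxin, 5 nM) or benzo[*a*]pyrene (BaP, 5 µM), and RNA was taken after 8 hr, with 3 arrays for each of the 6 groups, 18 in all. The *c*35 line is 1 clone, so the AHR mutation cannot be told apart from other differences between these lines. Samples came from 1 time point, so the values are levels and say nothing of phase or rhythm. Each array read the RNA of a whole culture, in which fewer cells expressing a gene and less of its RNA per cell cannot be told apart.

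The circadian clock is a feedback loop of transcription. The bHLH-PAS proteins CLOCK and NPAS2 pair with BMAL1 (gene *Arntl*) and activate genes that carry E-boxes, among them the *Per* and *Cry* genes, whose proteins return to the nucleus and repress CLOCK and BMAL1. The same activators drive *Dbp* and *Bhlhe40*: DBP and its relatives TEF and HLF are PAR bZIP factors that activate liver output genes from D-boxes, and BHLHE40 (DEC1) is a bHLH repressor that competes for E-boxes. AHR and its partner ARNT are also bHLH-PAS proteins, and PER proteins share the PAS domain, which gives the question asked here: whether AHR ligands, or the loss of DNA binding by AHR, went along with other levels of clock gene RNA.

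Values are log2 signals of Affymetrix probe sets, normalized by the authors, so that 1 unit is a doubling. A gene stands for its probe set of highest mean signal, and signals were compared between arrays for 1 probe set, never between probe sets. A change was called at a Benjamini-Hochberg adjusted p below 0.05 over all 45037 probe sets together with more than 1.5-fold. "Rose" and "fell" are kept for called changes. The *c*35 arrays had a smaller 3′ minus 5′ *Actb* signal, a measure of RNA integrity and labelling, at 0.30 to 0.53 against 0.73 to 1.38 in wild-type arrays. The AHR targets *Cyp1a1*, *Nqo1* and *Tiparp* rose with both ligands in wild-type cells. In *c*35 cells 3 arrays stood apart, DMSO replicates 1 and 2 and BaP replicate 3, with *Cyp1a1* at 8.32, 8.34 and 8.32 against 4.87 to 6.23 in the other *c*35 arrays. Without them naive *c*35 cells keep only 1 array, replicate 3, and *c*35 cells with BaP keep 2. Where naive *c*35 cells enter, values without them are thus given as effect sizes only. The count of clock genes called between the lines with BaP was the same without them, 3. Values without them are printed where an adjusted p below 0.05 was lost or such a value moved by over 1.5 times. Of 7 measured hepatocyte markers 1 was called between the naive lines, *Alb*, at 11.18 in *c*35 and 13.64 in wild-type cells, and the other 6 differed by -0.22 to 0.39. The summed log2 signal of these markers was 12.65 to 12.81 in *c*35 and 13.98 to 14.19 in wild-type arrays and was carried by *Alb*, and that of 9 markers of other cells was 13.72 to 13.92 and 14.03 to 14.43, led in both lines by *Dcn*. Of these 9, *Cd68* was higher in naive *c*35 cells (8.70 against 7.30), *Pdgfra* was higher in naive wild-type cells (5.31 against 3.72), and the other 7 were not called. The part of these differences in the clock gene results was not tested. The *Actb* value was added to the model, but its ranges in the lines did not overlap. Values with it rest on the spread of *Actb* within groups and cannot separate RNA quality from line.

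Promoter windows from RefSeq (GRCm38.p6, 250 bases before to 50 after a start site) were found for 8 of the 10 genes, 12 windows in all, and not for *Per2* and *Bhlhe40*. They were searched on both strands for the E-box of CLOCK and BMAL1 (CACGTG), for the AHR core (GCGTG, or CACGC on the other strand) and for a D-box of DBP, TEF and HLF (TTATGTAA, or TTACATAA), and 0 sites overlapped a site of another motif. The E-box was present in 7.15% of all 32851 windows and in 4 of these 12 (*Per1*, *Cry1* and *Tef*). The AHR core was in 32.4% of all windows and in 9 of the 12, with at least 1 window for each of the 8 genes, some of which have more than 1 window. The clock gene windows with this core were 60.3 to 76.7% G and C. Shares over all windows were not matched for base content, so enrichment was not tested. The D-box was in 0.938% of all windows and in 1 of the 12, that of *Per3*. The windows printed are those of the 4 genes with a window whose level was higher in *c*35 cells, and that of *Per3*, which has 2 D-boxes. All are written along the gene's own strand, with matches to any of the 3 motifs in capitals. A match is a description of the letters and not a binding site. *Dbp* lies at chr7:45704997-45705296 (plus strand), *Cry1* at chr10:85185005-85185304 (minus), *Cry2* at chr2:92434020-92434319 (minus), the upstream window of *Tef* at chr15:81802423-81802722 (plus) and *Per3* at chr4:151044616-151044915 (minus).
Dbp: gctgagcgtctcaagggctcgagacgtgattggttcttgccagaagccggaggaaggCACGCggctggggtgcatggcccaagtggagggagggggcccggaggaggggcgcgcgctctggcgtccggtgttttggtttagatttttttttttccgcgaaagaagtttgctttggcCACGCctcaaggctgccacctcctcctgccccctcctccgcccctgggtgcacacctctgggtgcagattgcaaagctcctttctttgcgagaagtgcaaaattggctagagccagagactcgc
Cry1: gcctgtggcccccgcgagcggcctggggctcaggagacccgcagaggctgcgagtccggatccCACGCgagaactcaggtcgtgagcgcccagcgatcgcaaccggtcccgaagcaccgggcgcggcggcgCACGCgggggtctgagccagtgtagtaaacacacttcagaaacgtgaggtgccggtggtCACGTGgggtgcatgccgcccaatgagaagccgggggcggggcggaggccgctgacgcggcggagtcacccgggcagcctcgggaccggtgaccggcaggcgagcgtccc
Cry2: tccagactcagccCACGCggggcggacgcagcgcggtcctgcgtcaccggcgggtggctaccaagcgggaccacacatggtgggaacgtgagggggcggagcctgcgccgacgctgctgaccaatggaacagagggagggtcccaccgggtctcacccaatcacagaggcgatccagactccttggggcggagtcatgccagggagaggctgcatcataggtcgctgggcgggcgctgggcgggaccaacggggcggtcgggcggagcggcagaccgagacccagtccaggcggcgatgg
Tef: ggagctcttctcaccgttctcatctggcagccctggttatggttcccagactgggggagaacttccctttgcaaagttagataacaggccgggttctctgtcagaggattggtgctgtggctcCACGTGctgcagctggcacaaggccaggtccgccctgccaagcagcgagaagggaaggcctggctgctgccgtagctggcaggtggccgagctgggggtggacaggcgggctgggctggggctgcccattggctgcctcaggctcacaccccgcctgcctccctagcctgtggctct
Per3: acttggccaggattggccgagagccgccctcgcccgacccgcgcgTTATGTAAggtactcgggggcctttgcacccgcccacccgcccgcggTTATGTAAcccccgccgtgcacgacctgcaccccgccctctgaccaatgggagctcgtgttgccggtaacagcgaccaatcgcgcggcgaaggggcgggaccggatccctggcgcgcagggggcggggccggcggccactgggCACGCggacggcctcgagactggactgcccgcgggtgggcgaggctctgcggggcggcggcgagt

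In the *Cry1* window the E-box begins 60 bases before the start site, and the 2 AHR cores begin 187 and 119 bases before it. *Dbp* has 2 AHR cores, at 193 and 74 bases before its start, and no CACGTG in this window. The *Tef* window has 1 E-box at 127 bases and no AHR core, while its second window has an E-box at 138 bases and an AHR core at 52 bases. The D-boxes of *Per3* begin 205 and 158 bases before its start.

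The largest differences were between the lines. In naive cells 2 of the 10 genes were called, *Dbp* and *Bhlhe40*, and both were lower in the wild-type line, with 0 calls in the other direction. Of all genes 14.0% were called in this comparison, and 6.52% of all genes were called as lower in wild-type cells, so a count of 2 in 10 is near the background. With no minimum change 6 genes had an adjusted p below 0.05, 5 lower in wild-type cells (*Dbp*, *Bhlhe40*, *Cry1*, *Cry2* and *Tef*) and 1 higher (*Clock*), against 37.9% of all genes (19.1% lower). The arrays of the naive lines did not overlap for 8 of the 10 genes, against 47.4% of all genes. The median log2 fold change of the 10 genes, wild-type minus *c*35, was -0.21, and that of all genes was -0.03.

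**Figure D1:**
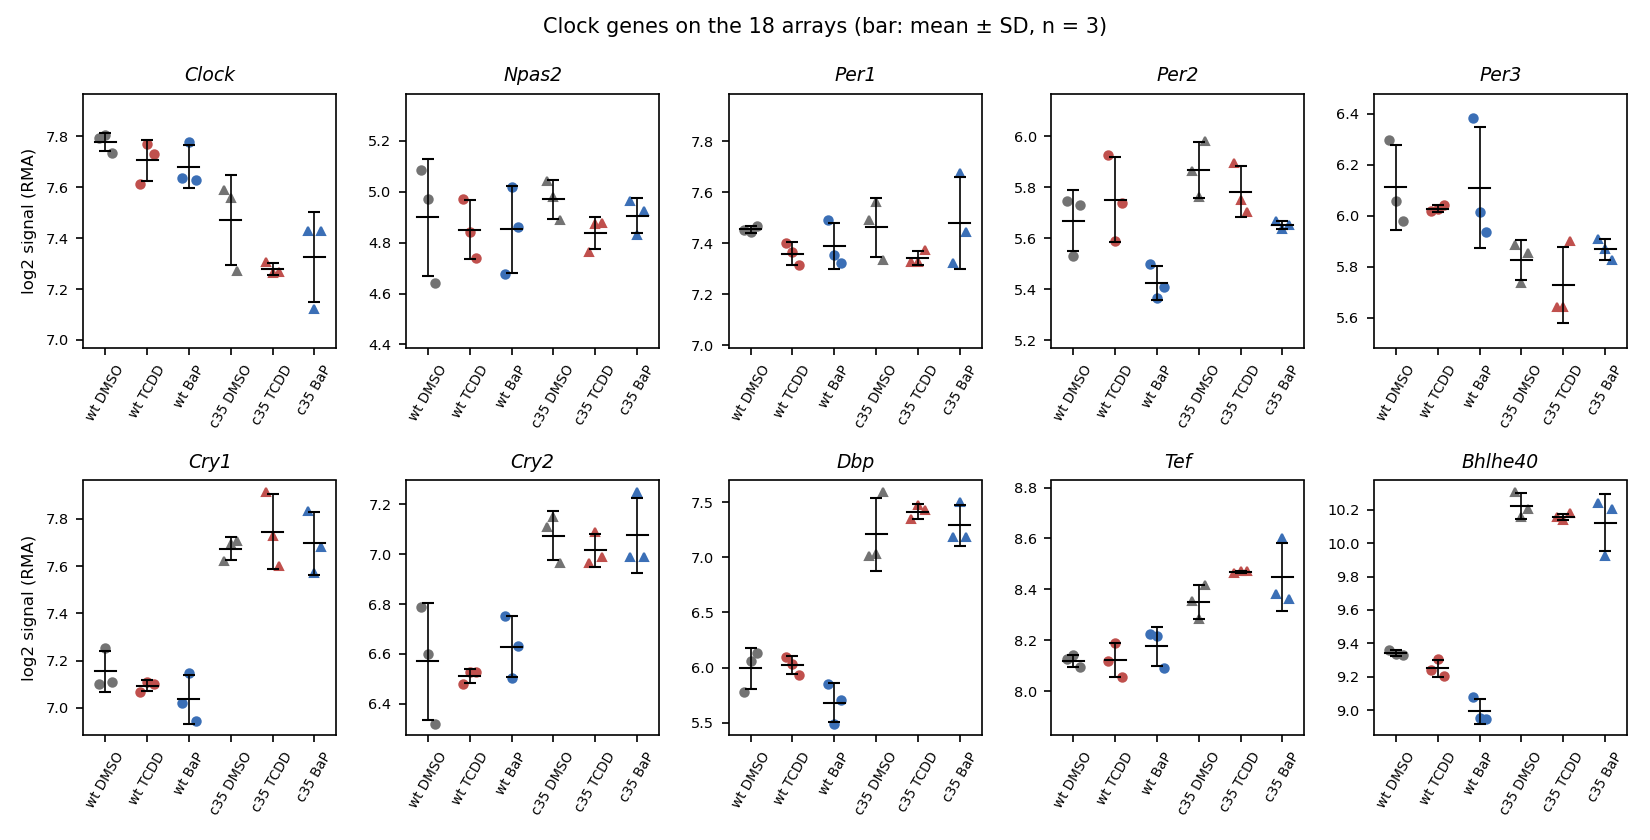
Each panel shows 1 clock gene, with log2 signal on the vertical axis (scaled for each gene, spanning at least 1 unit) and the 6 groups on the horizontal axis. Circles are wild-type and triangles *c*35 arrays, grey is DMSO, red TCDD and blue BaP, and bars are mean ± SD of 3 arrays. *Dbp*, *Bhlhe40*, *Cry1*, *Cry2* and *Tef* stood higher on all 9 *c*35 arrays than on any of the 9 wild-type arrays, and *Clock* and *Per3* lower.

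*Dbp*, the PAR bZIP output factor, read 5.78, 6.06 and 6.13 on the naive wild-type arrays and 7.01, 7.03 and 7.59 on the naive *c*35 arrays. The lowest *c*35 array was thus above the highest wild-type array. The log2 fold change was -1.22 (SE 0.14, adjusted p = 5.26e-07), a 2.33-fold lower level in wild-type cells. Its second probe set, which read 5.86, 5.54 and 5.70 against 6.43, 6.77 and 6.96, was also called (log2 fold change -1.02, SE 0.13, adjusted p = 1.48e-06). The probe set of higher signal has the suffix _s_at, given to probes that can match other transcripts, and the second does not. The 2 naive *c*35 arrays with high *Cyp1a1* gave the lower *Dbp* signals of that group, 7.01 and 7.03. Without the 3 *c*35 arrays of high *Cyp1a1* the difference was -1.60, which rests on the 1 naive *c*35 array left, at 7.59. With the *Actb* value in the model the difference was -1.17 (adjusted p = 0.000453).

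*Bhlhe40*, the E-box repressor, had the narrowest spread within groups of the called genes. It read 9.36, 9.34 and 9.33 in naive wild-type cells and 10.31, 10.15 and 10.21 in naive *c*35 cells. All *c*35 arrays lay above all wild-type arrays, whose SD was 0.015, and the log2 fold change was -0.88 (SE 0.07, adjusted p = 7.10e-09), a 1.84-fold lower level in wild-type cells. It was -0.87 without the 3 *c*35 arrays and -0.88 with the *Actb* value.

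The cryptochromes *Cry1* and *Cry2*, repressors of CLOCK and BMAL1, were both lower in naive wild-type cells by less than the 1.5-fold minimum. *Cry1* read 7.10, 7.25 and 7.11 in wild-type and 7.62, 7.69 and 7.71 in *c*35 arrays, a log2 fold change of -0.52 (SE 0.09, adjusted p = 7.99e-05). *Cry2* read 6.79, 6.60 and 6.32 against 7.11, 7.15 and 6.96, a log2 fold change of -0.50 (SE 0.11, adjusted p = 0.000751). Neither gene's groups overlapped, but the wild-type arrays of *Cry2* were spread over nearly as much as the difference. Without wild-type DMSO replicate 1 the *Cry2* difference was -0.61 and passed the minimum, as it did with the *Actb* value (-0.80). Without the 3 *c*35 arrays it was -0.39, with 1 naive *c*35 array left.

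*Tef*, the PAR bZIP relative of *Dbp*, read 8.13, 8.14 and 8.10 in naive wild-type and 8.35, 8.28 and 8.42 in naive *c*35 cells. That difference, -0.23 (SE 0.07, adjusted p = 0.0166), was small and under the minimum. Its other probe sets gave -0.57 (adjusted p = 0.000791) and -0.16 (adjusted p = 0.382), all of the same sign. The adjusted p of the first rose to 0.0527 without wild-type DMSO replicate 3 and to 0.0720 without *c*35 DMSO replicate 3. Without the 3 *c*35 arrays its difference was -0.30.

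*Clock*, the activator, went the other way. It read 7.79, 7.80 and 7.73 in naive wild-type and 7.59, 7.56 and 7.27 in naive *c*35 cells, a log2 fold change of 0.31 (SE 0.09, adjusted p = 0.0140) that was under the minimum. The 2 *c*35 arrays with high *Cyp1a1* were nearest to the wild-type values. Without the 3 such arrays, with 1 naive *c*35 array left, the difference was 0.51. Without *c*35 DMSO replicate 3, which leaves the 2 naive arrays of high *Cyp1a1*, it was 0.20 with an adjusted p of 0.110. With the *Actb* value it was 0.38 with an adjusted p of 0.0715. The 3 other *Clock* probe sets gave 0.43 (adjusted p = 0.00296), 0.15 (adjusted p = 0.174) and 0.13 (adjusted p = 0.507).

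The remaining 4 genes did not pass the test between the naive lines. *Npas2*, the paralog of *Clock*, differed by -0.07 (95% confidence interval -0.31 to 0.17) and *Per1* by -0.01 (-0.19 to 0.17), so each interval was well inside the 1.5-fold minimum of 0.585 on the log2 scale. The *Npas2* probe sets had low mean signals, 4.89 and 2.97, under the median of every array (5.62 to 5.69). Its interval is thus one of signal, which may be near background, and does not bound the change of its RNA. *Per2* differed by -0.20 (-0.41 to 0.01, adjusted p = 0.140) and *Per3* by 0.29 (0.05 to 0.52, adjusted p = 0.0572). *Per3* was higher in wild-type cells on its probe set of highest signal, and its 5 other probe sets gave between -0.04 and 0.11, all with overlapping arrays.

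The same comparison on other arrays, the lines both with TCDD or both with BaP, was added after the naive values were seen. *Dbp* differed by -1.39 with TCDD (adjusted p = 7.28e-08) and by -1.61 with BaP (adjusted p = 9.16e-09). *Bhlhe40* differed by -0.91 and -1.13 (adjusted p = 4.14e-09 and 1.63e-10), and both genes were called each time. *Cry1*, at -0.65 and -0.66, was then called as well (adjusted p = 4.87e-06 and 4.11e-06), giving 3 of 10 genes in each comparison, all lower in wild-type cells. Of all genes 15.0% were called with TCDD (6.32% lower) and 15.8% with BaP (6.83% lower). The *Cry1* call was lost with the *Actb* value in the model (-0.53 and -0.55) and, with TCDD, without *c*35 TCDD replicate 1 (-0.57). *Cry2* differed by -0.50 and -0.45, *Tef* by -0.35 and -0.27 and *Clock* by 0.43 and 0.36, all with an adjusted p below 0.05 and under the minimum. With the *Actb* value *Cry2* gave -0.81 and -0.74 and passed the minimum. *Per3* differed by 0.30 with TCDD (adjusted p = 0.0446), but its adjusted p was above 0.05 in 10 of 15 alternatives. Among these were the *Actb* value (0.03, adjusted p = 0.940) and the mean of its probe sets (0.10, adjusted p = 0.207). Leaving out any 1 of the wild-type TCDD arrays was also among them.

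**Figure D2:**
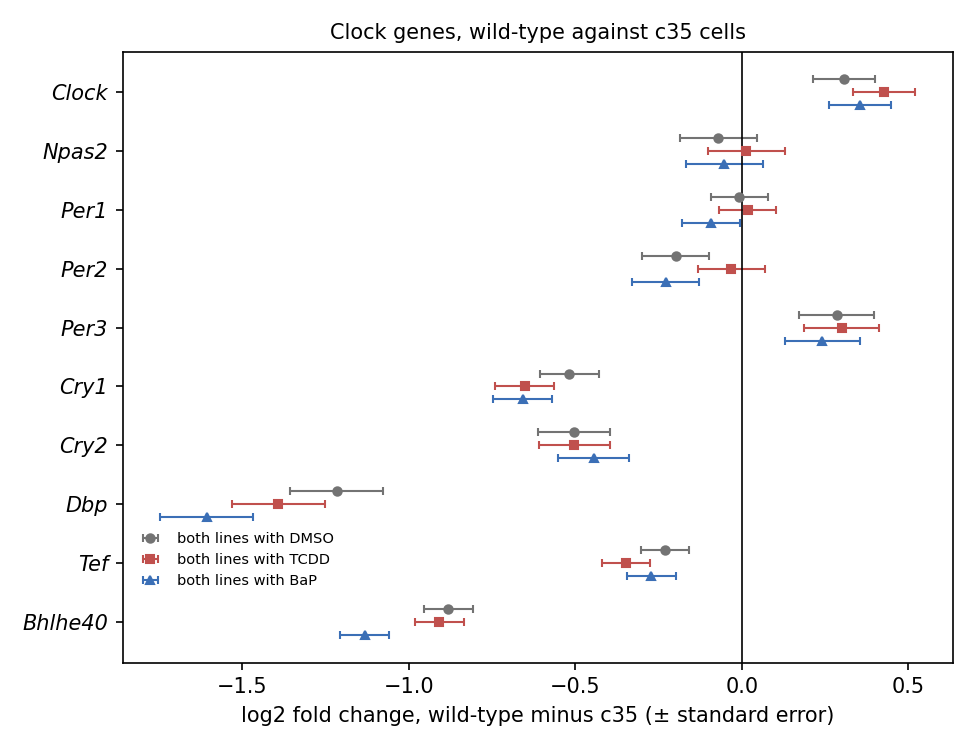
Log2 fold change of wild-type minus *c*35 cells on the horizontal axis for each clock gene, with standard error bars, for the lines both with DMSO (grey circles), TCDD (red squares) or BaP (blue triangles), 3 arrays per group. *Dbp* lay between -1.61 and -1.22 and *Bhlhe40* between -1.13 and -0.88 in the 3 comparisons, while *Npas2* and *Per1* lay within 0.1 of 0.

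Over all treatments, the 9 wild-type and the 9 *c*35 arrays did not overlap for 7 of the 10 genes, 5 higher in *c*35 and 2 (*Clock* and *Per3*) higher in wild-type cells, against 28.3% of all genes (13.9% higher in *c*35). Over the 24 probe sets, 7 lay apart with *c*35 higher and 3 with wild-type higher, and 14 overlapped. Of all probe sets 23.8% lay apart. *Per3* lay apart only on its probe set of highest signal. The *Dbp* signal ran from 5.49 to 6.13 (median 5.94) in wild-type and from 7.01 to 7.59 (median 7.34) in *c*35 cells. *Cry1* ran from 6.94 to 7.25 in wild-type and from 7.57 to 7.91 in *c*35 cells. In the order of the 6 group means, the boundary between the lines was the only gap between neighbours for *Clock*, *Cry1*, *Cry2*, *Dbp*, *Tef* and *Per3*, and neighbouring groups of the same line overlapped. *Bhlhe40* had 2 more gaps, since the wild-type arrays with DMSO, TCDD and BaP formed 3 steps that did not overlap. *Per2* had 1 gap, below which wild-type cells with BaP stood alone, and *Npas2* and *Per1* had none.

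With TCDD 0 of the 10 genes were called in wild-type cells, against 0.379% of all genes called. Their log2 fold changes lay between -0.10 and 0.08, the lowest adjusted p was 0.672, and 0 genes had an unadjusted p below 0.05, against 14.3% of all genes. The 95% confidence intervals of all 10 lay between -0.32 and 0.32, so that a change in signal of more than 1.25-fold was outside each. For *Npas2*, with its low signal, this does not bound the change of its RNA. *Per1* and *Bhlhe40* were the 2 genes whose TCDD and DMSO arrays did not overlap, against 18.3% of all genes. *Per1* is a repressor with an E-box in 1 window and an AHR core in its other window. It read 7.45, 7.44 and 7.47 with DMSO and 7.40, 7.36 and 7.31 with TCDD (log2 fold change -0.10, SE 0.09, adjusted p = 0.713). The 24 probe sets lay between -0.22 and 0.23.

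BaP also gave no call among the 10 genes, against 1.32% of all genes. With no minimum change 1 gene had an adjusted p below 0.05, *Bhlhe40*, against 6.48% of all genes, and 3 had an unadjusted p below 0.05 (*Bhlhe40*, *Per2* and *Dbp*), against 19.2%. The BaP and DMSO arrays did not overlap for 2 genes, *Bhlhe40* and *Per2*, against 23.8% of all genes. Its BaP arrays read 9.08, 8.95 and 8.94 and its TCDD arrays 9.24, 9.31 and 9.21, beside the DMSO arrays at 9.36, 9.34 and 9.33 given above. All 3 BaP arrays were below all TCDD arrays, and these were below all DMSO arrays. The BaP difference was -0.35 (SE 0.07, 95% confidence interval -0.50 to -0.20, adjusted p = 0.00653), which is 1.27-fold lower, and its adjusted p stayed below 0.05 in each of the 15 other settings and left-out arrays tried. The TCDD difference was -0.09 (SE 0.07, adjusted p = 0.672). Compared directly, TCDD was above BaP by 0.26 (SE 0.07, adjusted p = 0.0969). The ligand comparisons share the 3 DMSO arrays.

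*Dbp* was lower with BaP on both probe sets, with different outcomes of the test. The probe set of higher signal read 5.85, 5.49 and 5.71 with BaP and 6.10, 6.03 and 5.94 with TCDD, and the BaP difference from DMSO was -0.31 (SE 0.14, adjusted p = 0.260), with overlapping arrays. The second probe set read 5.26, 5.16 and 5.30 with BaP, 5.54, 5.82 and 5.93 with TCDD and 5.86, 5.54 and 5.70 with DMSO. There all BaP arrays were below all others of the line, the difference was -0.46 (SE 0.13, adjusted p = 0.0367) and under the minimum, and its adjusted p was between 0.0692 and 0.148 without any 1 of the 3 BaP arrays or without DMSO replicate 1 or 3. TCDD was above BaP by 0.52 (SE 0.13, adjusted p = 0.0446) on this probe set, and without wild-type TCDD replicate 1 the value was 0.63 and passed the minimum. Leaving out any other array of that comparison gave adjusted p values of 0.0948 to 0.200.

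*Per2*, a PAS protein and repressor, had probe sets that disagreed. On the probe set of highest signal BaP arrays read 5.50, 5.37 and 5.41, below the DMSO arrays at 5.75, 5.53 and 5.73 and the TCDD arrays at 5.93, 5.59 and 5.74. The difference from DMSO was -0.25 (SE 0.10, adjusted p = 0.200), and TCDD was above BaP by 0.33 (SE 0.10, adjusted p = 0.119). A second probe set gave -0.54 with BaP (SE 0.17, adjusted p = 0.0812), called without wild-type BaP replicate 1 (-0.69, adjusted p = 0.0406), and the remaining one gave 0.18. The other 7 genes differed by -0.12 to 0.06 with BaP. Over the 10 genes, TCDD against BaP gave 0 calls, against 0.258% of all genes. The same 3 genes, *Bhlhe40*, *Per2* and *Dbp*, had an unadjusted p below 0.05 (15.9% of all genes) and arrays that did not overlap (25.4% of all genes).

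**Figure D3:**
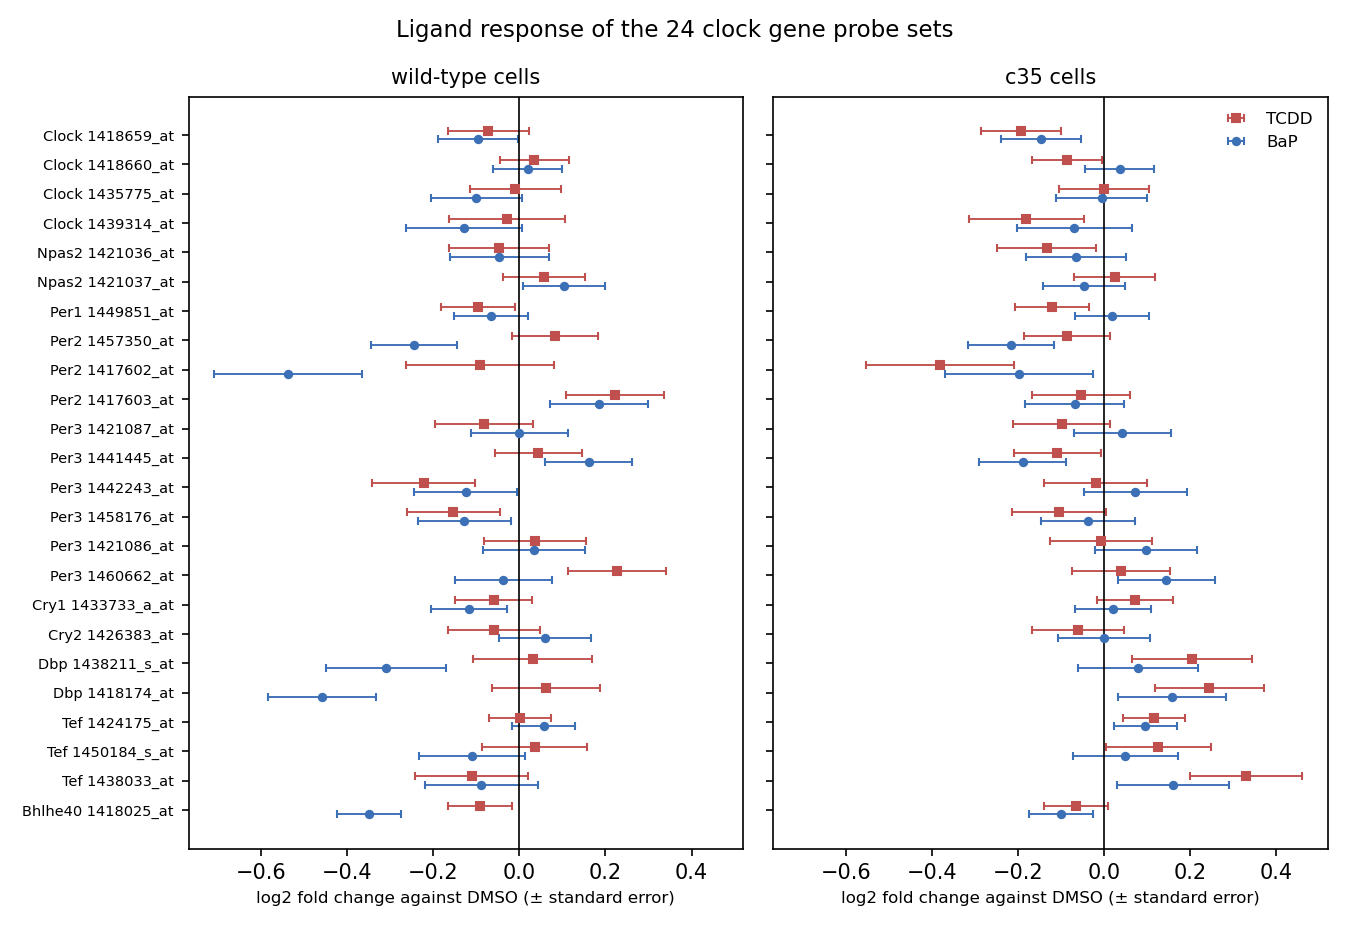
Log2 fold change of TCDD (red squares) and BaP (blue circles) against DMSO for each of the 24 probe sets, with standard error bars, in wild-type cells (left) and *c*35 cells (right), 3 arrays per group. In wild-type cells the BaP points of *Bhlhe40* (-0.35) and *Dbp* (-0.31 and -0.46) were among those furthest below 0. So were those of 2 of the 3 *Per2* probe sets (-0.25 and -0.54). The TCDD points lay between -0.22 and 0.23.

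In *c*35 cells 0 of the 10 genes had an adjusted p below 0.1 with either ligand by limma, as did 0 of all genes. At an unadjusted p below 0.05 there were 0 clock genes with TCDD and 1 with BaP, *Per2* at -0.22 (SE 0.10) or -0.33 without the 3 arrays of high *Cyp1a1*, beside 5.16% and 3.53% of all genes. *Bhlhe40* differed by -0.06 with TCDD and by -0.10 with BaP. The test of the difference itself, ligand response in wild-type minus *c*35 cells, gave 0 calls among the 10 genes for either ligand, against 0.280% of all genes for TCDD and 1.34% for BaP. At an unadjusted p below 0.05 there were 0 for TCDD (7.90% of all genes) and 1 for BaP (14.5% of all genes), *Bhlhe40* at -0.25 (SE 0.10, adjusted p = 0.318). The second *Dbp* probe set gave -0.62 for BaP (SE 0.18, adjusted p = 0.0944) and was called without *c*35 DMSO replicate 3 (-0.74, adjusted p = 0.0314). Without the 3 *c*35 arrays of high *Cyp1a1* it gave -0.44.

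The other genes of the clock were read from lists of textbook members. Of 7 genes for BMAL, REV-ERB and ROR factors 6 were measured, and between the naive lines 2 were lower and 1 was higher in wild-type cells, beside 14.0% of all genes called. *Arntl2* (BMAL2, a partner of CLOCK) read 6.92, 6.97 and 6.87 in naive wild-type and 8.14, 8.12 and 8.06 in naive *c*35 cells, a log2 fold change of -1.19 (SE 0.07, adjusted p = 7.43e-11). *Nr1d1* (REV-ERBα, a heme-binding nuclear receptor that represses *Arntl*) read 6.82, 6.81 and 6.67 against 8.01, 8.01 and 7.82, a log2 fold change of -1.18 (SE 0.09, adjusted p = 1.53e-09). *Rora*, whose product activates *Arntl* at the same sites, was higher in wild-type cells, by 0.89 (SE 0.15, adjusted p = 6.57e-05), a call that was lost with the mean of its probe sets (0.36) and with the *Actb* value (0.50). *Arntl* itself differed by -0.19 (adjusted p = 0.200).

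*Nr1d1* was also the 1 gene of that list with an adjusted p below 0.05 for the ligands in wild-type cells. Of all genes 1.03% had such a value with TCDD and 6.48% with BaP. It read 7.30, 7.09 and 7.14 with TCDD and 7.28, 6.97 and 7.01 with BaP, all above the 3 DMSO arrays. The differences, 0.41 with TCDD (SE 0.09, adjusted p = 0.0330) and 0.32 with BaP (SE 0.09, adjusted p = 0.0415), were under the minimum. They were not tried in other settings or with arrays left out. Between the lines the TCDD response differed by 0.42 (adjusted p = 0.334) and the BaP response by 0.33 (adjusted p = 0.271). *Arntl*, which did not reach that adjusted p, read 7.43, 7.48 and 7.41 with BaP in wild-type cells. These lay below all its DMSO arrays, at 7.83, 7.60 and 7.82, where BaP and DMSO arrays did not overlap for 23.8% of all genes. A link between *Arntl* and *Nr1d1* was not tested.

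Of 9 other repressors and output regulators, all measured, *Nfil3* (E4BP4, the bZIP repressor that opposes DBP at D-boxes) was lower in naive wild-type cells by -1.11 (SE 0.11, adjusted p = 9.20e-08) and *Hlf*, another PAR bZIP gene, was higher by 1.19 (SE 0.15, adjusted p = 1.46e-06). *Hlf* thus lay opposite to *Dbp* and *Tef*. These were the 2 called genes of the list, beside 14.0% of all genes. *Hlf* was also the 1 gene of the 9 called with TCDD in wild-type cells, where 0.379% of all genes were called. *Hlf* read 6.57, 6.97 and 7.11 with DMSO, 7.42, 7.92 and 7.52 with TCDD and 7.17, 7.10 and 7.35 with BaP. The TCDD arrays were above all others of the line, and the log2 fold change was 0.74 (SE 0.15, adjusted p = 0.0171), whereas BaP gave 0.33 (SE 0.15, adjusted p = 0.256). In *c*35 cells it read 5.77, 5.68 and 5.63 with DMSO and 5.47, 5.23 and 4.94 with TCDD, a difference of -0.48 (adjusted p = 0.963). The TCDD call was lost without wild-type DMSO replicate 1 (0.58, adjusted p = 0.0951) and without wild-type TCDD replicate 2 (0.59, adjusted p = 0.123), and the other *Hlf* probe set gave 0.30 (adjusted p = 0.305).

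**Figure D4:**
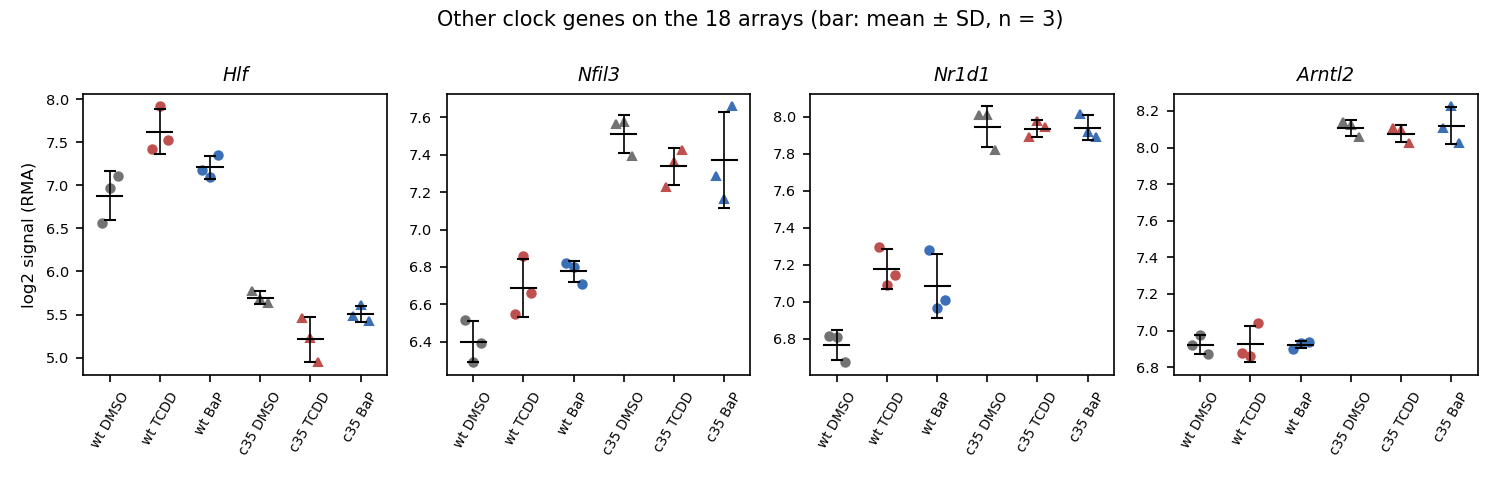
Log2 signal of *Hlf*, *Nfil3*, *Nr1d1* and *Arntl2* on the 18 arrays by group, with mean ± SD of 3 arrays, circles for wild-type and triangles for *c*35 cells. *Nfil3*, *Nr1d1* and *Arntl2* were higher on every *c*35 than on any wild-type array, *Hlf* was lower, and its wild-type TCDD arrays, at 7.42 to 7.92, stood above the DMSO arrays.

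Among 6 measured genes of 7 for kinases and ubiquitin ligases that act on PER and CRY proteins, 1 was called between the naive lines, beside 14.0% of all genes (7.52% higher): *Gsk3b*, higher in wild-type cells by 0.86 (SE 0.09, adjusted p = 7.46e-08), or by 0.24 with the mean of its probe sets. None was called with a ligand in wild-type cells. Of 15 other genes of the bHLH-PAS family and its coactivators 7 were called between the naive lines, all higher in wild-type cells, against 7.52% of all genes, and 0 with either ligand. They were led by *Epas1* (HIF-2α) at 1.62, *Ncoa1* at 1.09, *Ahr* at 1.01 and *Ncoa2* at 0.997. Averaged over every probe set of the gene, 6 of these 7 calls were lost, with values of 0.21 to 0.58, and *Epas1* alone kept its call.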

How the data were processed

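RNA was hybridised to 18 mouse arrays from Affymetrix, in 6 groups of 3 biological replicates taken from the labels. For wild-type cells with TCDD the dose is that of the methods, since their labels lack one. The deposited log2 signals had been summarised with RMA (version not given in the sources used here) and were normalized no further. Leaving out 64 control probe sets of 45101 left 45037. Symbols came from the platform annotation (34945 probe sets with 1 symbol, 932 with several, 9160 with none).

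Group means over the 18 arrays were fitted by limma version 3.58.1, with eBayes and an intensity trend, after tests on simulated data. R was version 4.3.3, and files were read by the package data.table, version 1.17.8. The Benjamini-Hochberg adjustment ran over 45037 probe sets, and changes were called at 0.05 and 1.5-fold, or at 0.1 with no minimum for ligands in *c*35 cells. The p-values measure the spread between these samples, and 3 arrays per group limit the precision. All clock genes are named, and of the other lists the called genes, at most 4 of largest change. *Nr1d1* under ligands, *Arntl*, and the comparison of lines under ligands were chosen after their values were seen. The clock genes and the lists were chosen with earlier results of these data known. The rule naming genes of like pattern applied only to clock genes called with a ligand in wild-type cells, and there were 0. Promoter sequences are RefSeq's. Figures were drawn with matplotlib 3.10.9. Alternatives were other normalizations, array weights, filters, gene summaries, an *Actb* covariate, a replicate block, smaller fits and each array left out. The ChIP/chip and real-time PCR data were not analysed here.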

Additional observations from a re-analysis of the deposited data

Results flagged for a closer look

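The response of *Hlf*, the PAR bZIP relative of *Dbp*, to TCDD differed between the lines. The response in wild-type minus *c*35 cells was 1.22 on the log2 scale (SE 0.21, adjusted p = 0.00805 by limma), since *Hlf* rose by 0.74 in wild-type cells and differed by -0.48 in *c*35 cells. Without the 3 *c*35 arrays of high *Cyp1a1*, which leaves 1 naive *c*35 array, the value was 1.16. The second *Hlf* probe set gave 0.23 (adjusted p = 0.844). Groups of 3 arrays were not searched for single outlying samples.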

How the results depend on the processing

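With 3 arrays per group, a single array decided some values under the 1.5-fold minimum, and signals give no count from which depth could be read. No value changed direction among called results, and 137 values that were not called changed sign in an alternative. With no minimum change the count of clock genes called rose from 0 to 1 with BaP in wild-type cells and from 2 to 6 between the naive lines. The count at an adjusted p below 0.05 with BaP was 2 with array weights and 2 with the mean of all probe sets, where *Dbp* joined *Bhlhe40*. Between the naive lines that count was 4 to 7. It was 4 without *c*35 DMSO replicate 3, which leaves the 2 naive *c*35 arrays of high *Cyp1a1*. The naive values were -1.60 to -1.03 for *Dbp* and -0.92 to -0.84 for *Bhlhe40* in their 16 alternatives. Both calls held in each alternative that kept more than 1 naive *c*35 array. *Cry2* passed the minimum with array weights (-0.66), and the second *Dbp* probe set was called for the BaP response between the lines with array weights (-0.61, adjusted p = 0.0399). With TCDD in both lines 2 to 3 clock genes were called and with BaP 3. The call of *Hlf* with TCDD in wild-type cells was lost with the mean of its probe sets (0.52) and when only the compared arrays were fitted (adjusted p = 0.238). The cause of these shifts was not tested.

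The labels number replicates 1 to 3 in every group. Same-numbered arrays did not deviate together (45 pairs, r between -0.26 and 0.22, 8 above 0.1), so the numbers were not taken as pairs. With the replicate block, the counts of clock genes called were 0 with TCDD, 0 with BaP and 2 between the naive lines, as without it, and the second *Dbp* probe set for TCDD against BaP had an adjusted p of 0.0524.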
